A study of Mus musculus with 12 samples.

Results

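CpG-C is a class of CpG oligodeoxynucleotide (ODN), a short synthetic DNA with unmethylated CpG motifs and a palindrome, and its effect on the RNA of mouse splenic B cells is described here across all genes. The genes are those that the deposited table lists as known and that exceeded 1 FPKM (fragments per kilobase of transcript per M mapped fragments, M for mega) in at least 3 of the 6 libraries compared, which were 10667 of the 19682 known genes in the table. Of these, 9378 exceeded 1 FPKM in all 6 libraries, 594 passed the filter with no CpG-C library above it and 289 with no control library above it. At the edge of the filter, 82 genes had a third-highest value within 0.05 FPKM above the limit and 94 within 0.05 FPKM below or at it.

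Spleens of BALB/c mice, aged 42 to 49 days after birth, gave the B cells, which were cultured for 24 h in RPMI-1640 with 10% fetal bovine serum and antibiotics. The CpG-C group received 1 µM of a CpG-C ODN whose sequence the labels do not give, and the control group is labelled only as control. Each group held 3 libraries, as did the CpG-A and CpG-B groups, which entered the fit for their spread and for comparison. The labels do not say whether the 3 libraries of a group came from separate mice or cultures, or how the B cells were purified, so p-values measure the spread between these libraries, which may be technical. All libraries are of bulk RNA, in which more cells of a kind and more RNA per cell cannot be told apart.

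The depth, read from the steps between low values, was 14.3 to 17.5 M fragments in the controls and 24.8 to 26.0 M with CpG-C. The controls held more signal at loci that were near 0 with CpG-C: the median over unnamed loci was 1.69, 2.37 and 1.15 FPKM in controls 1, 2 and 3 and of 0.05, 0.05 and 0.06 FPKM with CpG-C, and 1292 olfactory and vomeronasal receptor genes had a mean of 0.153 to 0.251 FPKM against 0.0095 to 0.0147 FPKM. CpG-C library 3 stood apart from libraries 1 and 2, with a median squared difference per gene of 39.8 and 40.3 times the sampling noise, against 2.28 between libraries 1 and 2 and 2.94 to 6.78 among the controls. For some of the gene lists in which it stood apart, results are given with and without it. The 7 B cell markers exceeded 1 FPKM in every library and summed to 11260 to 11640 FPKM in the controls and to 5412 to 7225 FPKM with CpG-C. Most of that sum was Cd74, at a mean of 7332 FPKM in the controls and 3533 FPKM with CpG-C. The lists for T cells, NK cells, neutrophils, and erythroid cells and platelets summed to at most 7.71 FPKM in any of these libraries, with Hbb-bs at 0 in all 6, and the monocyte list to 12.8 to 14.6 FPKM and then 6.83 to 9.54 FPKM. The dendritic cell list rose in sum from 11.5 to 14.6 FPKM to 38.8 to 82.3 FPKM, mostly through the interferon-inducible gene Bst2 (46.9 FPKM on average with CpG-C), with Xcr1 at 0 in all 6. The stromal list summed to 60.0 to 69.8 FPKM and 50.6 to 72.2 FPKM, nearly all of it Pecam1, which B cells also express.

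CpG DNA is bound in endosomes by Toll-like receptor 9, which B cells carry, and drives resting B cells to grow, divide and secrete. A resting lymphocyte is small and makes little protein, and growth after stimulation calls on ribosomes, glycolysis, lipid synthesis, nucleotide synthesis and an enlarged endoplasmic reticulum (ER). The gene groups below follow that order, from metabolism through protein synthesis to cell division, and end with the genes that fell.

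Exposure to CpG-C went with differences in most of the genes measured. By limma, at an adjusted p under 0.05, 3778 known genes were higher with CpG-C (35.4% of those tested), 3732 were lower (35%) and 3157 were not called. At least 2-fold differences on the log2(FPKM + 1) scale were called for 1156 higher genes (10.8%) and 1055 lower genes (9.89%), and at least 4-fold differences for 322 and 148. Higher genes made up 50.3% of the calls. This split depends on the scaling, since with each library scaled to the same total (TPM) the median of all known genes moved to -0.22 from 0.01 and higher genes made up 34.2% of the calls, with 55.4% under median of ratios scaling. The 6 libraries did not overlap between groups for 74.5% of the known genes. The share of higher calls went with level: of 1660 genes with a mean under 3 FPKM, 21.9% were higher and 54.3% lower, and of 180 genes with a mean over 300 FPKM, 76.1% were higher and 15% lower. In the authors' deposited table the q-value was under 0.05 for 99.3% of these genes and the p-value for 90.6%. The largest p was 0.9988 and the largest q 0.058. Some q-values thus lay far below their p-values, and the 99.3% is not used as a measure of change. The plot of gene levels in both groups shows the calls on each side of the line of equal levels.

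**Figure D1:**
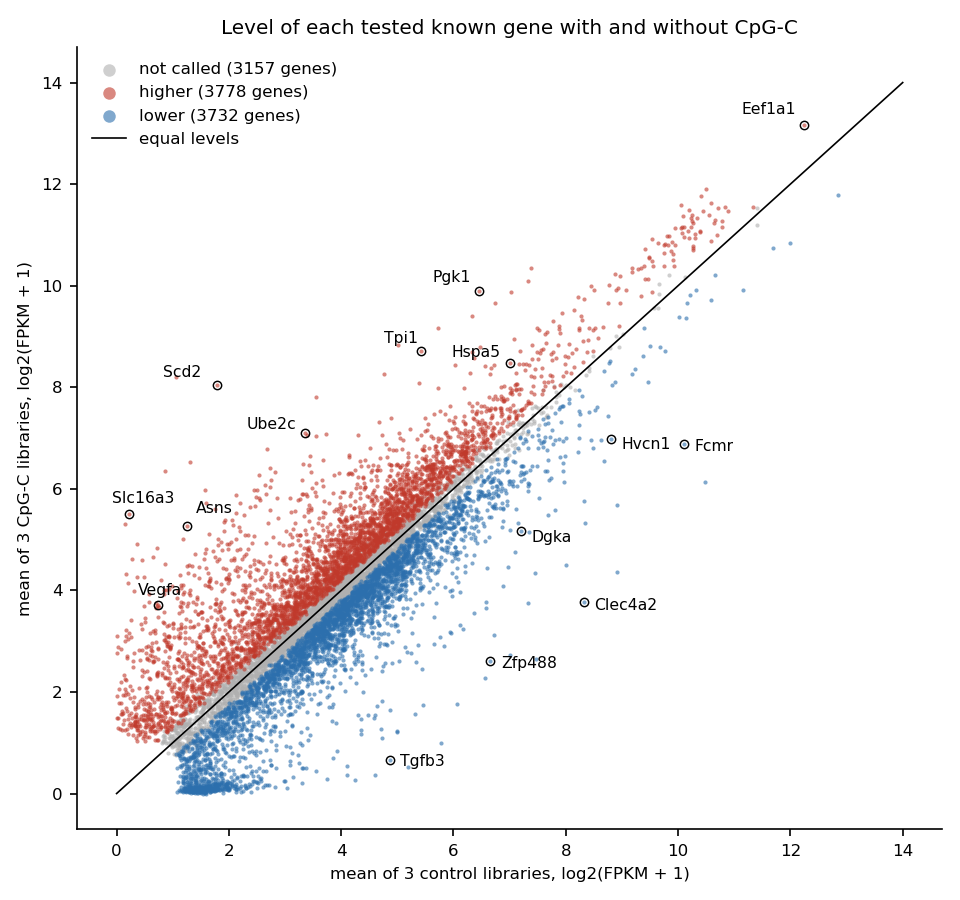
Each point is 1 of the 10667 tested known genes, with its mean over 3 control libraries on the horizontal axis and over 3 CpG-C libraries on the vertical axis, both as log2(FPKM + 1), coloured by call. The 3778 higher genes lie above the line of equal levels, the 3732 lower genes lie below it, and the genes over 300 FPKM lie mostly above it.

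Immune genes of the preset lists, such as Ly6a and Apoe, are left aside in the naming by size. Outside those lists the largest increase was that of Scd2, a stearoyl-CoA desaturase that makes monounsaturated fatty acids, which stood at 2.81, 2.05 and 2.48 FPKM in the controls and at 302, 304 and 184 FPKM with CpG-C, a log2 difference of 6.23 ± 0.22 (SE, adjusted p = 9.69e-10). It lies on chromosome 19 from 44293676 to 44306864 in mm10. Slc16a3, which exports lactate, was at 0.21, 0.15 and 0.13 FPKM in the controls and at 54.6, 54.1 and 25.3 FPKM with CpG-C (log2 5.21 ± 0.24). In both genes the groups were far apart, and CpG-C library 3 was the lowest of its group.

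Wfdc21, a whey acidic protein domain gene, rose from 1.39, 1.56 and 1.45 FPKM to 121, 123 and 29.8 FPKM. Cdh17, a cadherin of intestinal epithelium and of B cells, rose from a mean of 1.96 ± 0.20 to 62.3 ± 8.11 FPKM (SD, n = 3). Cebpd, a CCAAT/enhancer-binding protein, rose from 0.66 ± 0.12 to 27.6 ± 2.51 FPKM. Klk4, a kallikrein protease, was listed at 0, 0.19 and 0.2 FPKM in the controls and at 20.3, 20.7 and 16.4 FPKM with CpG-C. Eno2, the neuronal form of the glycolytic enzyme enolase, was at 0.26, 0.15 and 0.21 FPKM and then at 30.5, 34.2 and 5.86 FPKM, so its level in library 3 was a fraction of that in libraries 1 and 2. For Hist1h2ap, Pebp1, H2-Q6 and Rpl37rt, which the size rule also names, the values are uncertain, since the controls disagreed. Control 1 was at 32.0, 49.95, 6.09 and 48.2 FPKM, while Hist1h2ap, Pebp1 and H2-Q6 were listed at 0 in controls 2 and 3. Near-identical copies of a gene can split its fragments, and whether they did so here was not tested.

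**Figure D2:**
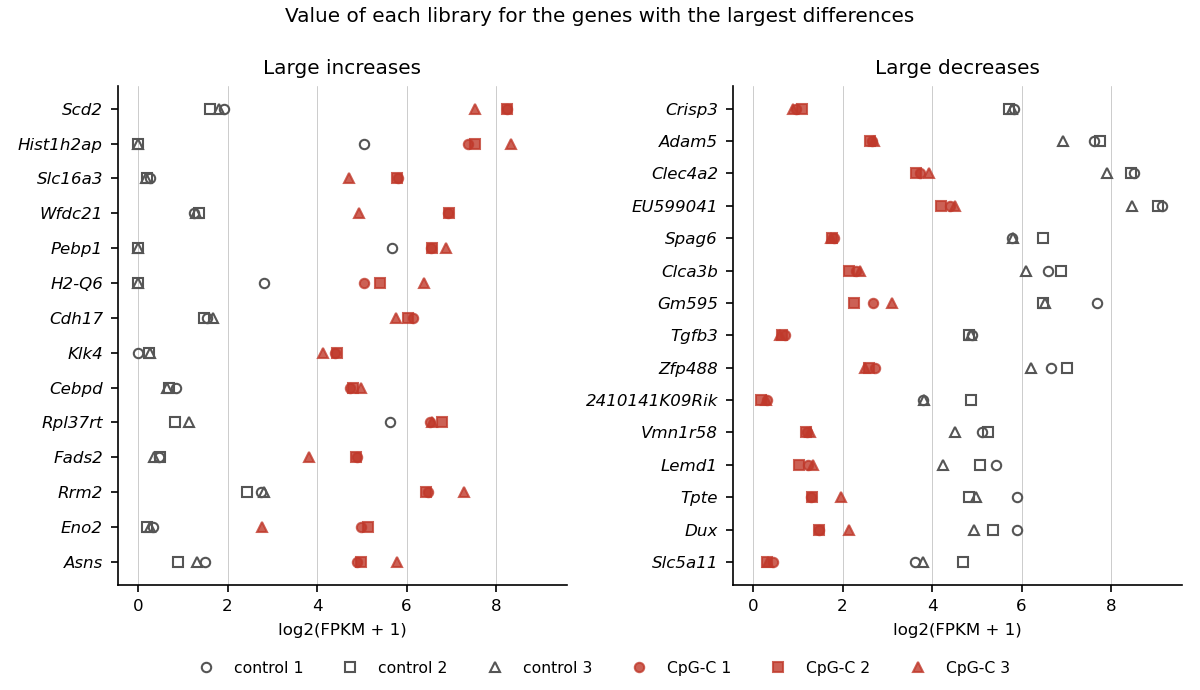
Each row is a gene and each symbol a library, on a log2(FPKM + 1) axis, for genes among the 15 largest increases (left) and the 15 largest decreases (right), with open grey symbols for controls and filled red symbols for CpG-C. CpG-C libraries lie to the right of the controls in every row on the left, with library 3 below the other 2 in rows such as Eno2 (5.86 FPKM) and Wfdc21 (29.8 FPKM), and to the left of the controls in every row on the right.

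The sterol pathway, which makes cholesterol from acetyl-CoA, was higher almost throughout. Of 25 tested genes of sterol synthesis and uptake 23 rose, 0 fell and 2 were not called, with a median log2 difference of 1.47 against 0.01 over all known genes. Of the 25, 2 passed the filter with no control library above 1 FPKM, Tm7sf2 among them. With a filter at 5 FPKM 21 rose and 0 fell. Fdps, which makes farnesyl diphosphate, stood at 27.5, 32.7 and 26.1 FPKM in the controls and at 177, 184 and 144 FPKM with CpG-C (log2 2.50 ± 0.17, adjusted p = 1.20e-07). Mvd, the mevalonate diphosphate decarboxylase, rose from 9.72 ± 0.58 to 50.2 ± 13.7 FPKM (SD, n = 3). Tm7sf2, a sterol reductase, was listed at 0 in all 3 controls and at 10.6, 8.46 and 3.77 FPKM with CpG-C. The list was lower in CpG-C library 3 than in libraries 1 and 2 for 23 of 25 genes, with a median log2 gap of -0.59, and without library 3 24 genes were called higher with a median of 1.67.

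Of 17 tested genes of fatty acid synthesis and desaturation, 15 rose and 1 fell (median log2 1.15). Fads2 was the 1 member that passed the filter with no control library above 1 FPKM. Fads2, a desaturase of polyunsaturated fatty acids, went from 0.39, 0.4 and 0.29 FPKM to 28.8, 28.1 and 13.2 FPKM, and Scd1, the desaturase related to Scd2, from 81.5 ± 6.03 to 383 ± 47.2 FPKM. Acacb, the acetyl-CoA carboxylase of the mitochondrial surface, stood at 6.18, 7.85 and 4.43 FPKM in the controls and at 1.16, 0.79 and 0.88 FPKM with CpG-C. Its controls ranked as they did at unnamed loci, with control 3 lowest. The part of that low signal in the fall of Acacb was not tested. Of 25 sphingolipid genes 7 rose and 10 fell, but 4 and 14 with TPM and 8 and 7 under median of ratios scaling, and Spns2, which exports sphingosine 1-phosphate, fell from 11.3 ± 1.29 to 3.05 ± 0.95 FPKM. Of 20 genes of fatty acid oxidation and lipid droplets, 9 rose and 4 fell, or 6 and 5 with TPM, with Acadl, a long-chain acyl-CoA dehydrogenase, rising from 30.7 ± 1.48 to 76.2 ± 5.49 FPKM.

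Glycolysis had the highest median of the lists, log2 2.14, with 19 of 21 genes higher, 0 lower and 2 not called, the glucose transporter Slc2a3 and the regulatory enzyme Pfkfb4. Slc16a3 was the 1 member that passed the filter with no control library above 1 FPKM. Pgk1, the phosphoglycerate kinase, stood at 86.6, 88.1 and 83.7 FPKM in the controls and at 1045, 1028 and 796 FPKM with CpG-C (log2 3.45 ± 0.09, adjusted p = 1.89e-10). Tpi1, the triosephosphate isomerase, stood at 42.4, 44.7 and 38.8 FPKM and then at 456, 460 and 342 FPKM. Genes of this pathway have processed pseudogenes whose fragments the authors' counting could have shared with them. The list took 0.366% to 0.378% of the summed FPKM of known genes in the controls and 1.3% to 1.57% with CpG-C.

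The hypoxia response genes outside glycolysis are targets and regulators of HIF-1, the transcription factor stabilised at low oxygen, with its subunit gene Hif1a. Of 20 tested 15 rose, 2 fell and 3 were not called (median log2 1.15). These include 2 genes that passed the filter with no control library above 1 FPKM, Egln3 among them. With a filter at 5 FPKM 14 rose and 2 fell. Ankrd37, a HIF-1 target of little-known function, stood at 5.27, 5.99 and 4.79 FPKM in the controls and at 70.9, 67.1 and 37.5 FPKM with CpG-C (log2 3.18 ± 0.20). Vegfa, the angiogenic growth factor, rose from 0.68 ± 0.08 to 12.1 ± 1.80 FPKM. Egln3, a prolyl hydroxylase that marks HIF-1 for destruction, was at 0.37, 0.41 and 0.5 FPKM and then at 13.0, 12.8 and 2.38 FPKM. Hif1an, which inhibits HIF-1, fell from 14.2 ± 0.13 to 9.70 ± 0.25 FPKM. Library 3 was below both other CpG-C libraries in 18 of 20 of these genes, with a median log2 gap of -0.81, and without it 17 rose and 2 fell.

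The promoter of Pgk1 is shown because it holds the hypoxia response element core ACGTG, in capitals with its reverse complement CACGT. The 250 bases before its start were taken from RefSeq (GRCm38.p6, chrX:106186850-106187099, plus strand), as were all promoters below.
Pgk1: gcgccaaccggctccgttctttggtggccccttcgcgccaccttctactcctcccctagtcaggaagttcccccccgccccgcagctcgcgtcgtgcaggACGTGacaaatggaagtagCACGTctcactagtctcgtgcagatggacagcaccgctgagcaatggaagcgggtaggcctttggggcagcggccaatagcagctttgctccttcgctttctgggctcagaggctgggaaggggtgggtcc
The core was in 9 of the 20 glycolysis promoters available (45%), each of a gene called higher. Of those 20 genes 19 were higher, with or without the core. In the hypoxia response list 9 of 18 promoters held it (50%), of which 8 genes were higher and 1 lower. Of those 18 genes 14 were higher, with or without the core. The core was in 22.5% of the promoters of tested genes and 18.6% of all 15631 promoters. It was also in 53.8% of the promoters of ER translocation genes and 42.3% of those of autophagy genes, so its share was not highest in the hypoxia lists. The core is also part of the E-box CACGTG, and a match is a run of letters, not a bound site. Altogether 10 motifs were searched, chosen with the list results known.

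Linked carbon pathways were higher as well. Of 10 pentose phosphate genes 9 rose and 0 fell, or 6 and 0 with TPM, with Tkt, the transketolase, at 51.3 ± 0.45 and then 107 ± 16.6 FPKM. Of 21 citrate cycle genes 16 rose and 0 fell, or 12 and 0 with TPM, and 1 of the 21 passed the filter through CpG-C libraries alone. Suclg2, a succinyl-CoA ligase subunit, rose from 9.68 ± 0.94 to 45.7 ± 6.37 FPKM. Of 79 tested oxidative phosphorylation subunits, 1 of which passed the filter through CpG-C libraries alone, 68 rose and 1 fell (median log2 0.85). Among them Cox6a2 and Cox7a1, cytochrome c oxidase subunits of heart and skeletal muscle, were both higher: Cox6a2 was listed at 0, 0.12 and 0.3 FPKM in the controls and at 4.81, 5.86 and 5.44 FPKM with CpG-C, and Cox7a1 rose from 1.17 ± 0.02 to 7.31 ± 1.23 FPKM.

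Genes of the amino acid response, driven by the transcription factor ATF4, were mostly higher. Of 18 tested ATF4 targets and amino acid synthesis genes 14 rose and 2 fell (median log2 1.32), while Atf4 itself was not called. These include 4 genes that passed the filter with no control library above 1 FPKM, Chac1 among them, and 1 with no CpG-C library above it, and with a filter at 5 FPKM 8 rose and 1 fell. Asns, the asparagine synthetase, stood at 1.83, 0.85 and 1.5 FPKM in the controls and at 28.5, 30.6 and 53.8 FPKM with CpG-C (log2 3.98 ± 0.35, adjusted p = 8.56e-07). Chac1, which degrades glutathione, stood at 0.51, 0.28 and 0.67 FPKM and then at 8.74, 9.46 and 19.5 FPKM. In both genes CpG-C library 3 was the highest of the 6. Cbs, the cystathionine beta-synthase, stood at 2.07, 3.06 and 1.6 FPKM in the controls and at 0.27, 0.22 and 0.2 FPKM with CpG-C. Control 3 was its lowest control, as it was for unnamed loci, and the part of that low signal in its fall was not tested.

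The promoters of Asns and Chac1 are shown for the ATF4 composite element, TGATGNAA, in capitals on either strand (the base at N stays in lower case; Asns chr6:7693210-7693459, minus strand, starting 27 bases from the start in the deposited table; Chac1 chr2:119350992-119351241, plus strand).
Asns: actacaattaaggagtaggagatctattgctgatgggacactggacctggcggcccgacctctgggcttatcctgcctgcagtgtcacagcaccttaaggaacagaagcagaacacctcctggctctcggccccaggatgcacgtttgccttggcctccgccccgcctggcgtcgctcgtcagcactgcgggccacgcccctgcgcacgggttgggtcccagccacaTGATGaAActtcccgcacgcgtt
Chac1: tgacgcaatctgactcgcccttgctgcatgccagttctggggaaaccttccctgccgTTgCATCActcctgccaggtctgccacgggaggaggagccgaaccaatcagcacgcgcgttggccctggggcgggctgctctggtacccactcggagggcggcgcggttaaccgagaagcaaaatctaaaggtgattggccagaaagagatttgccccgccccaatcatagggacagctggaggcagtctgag
The element was in 5 of the 16 promoters available for this list (31.2%), those of Asns, Chac1, Got1, Nupr1 and Pycr1, all called higher. It was in 1.87% of tested genes' promoters and 2.78% of all promoters. Of the 16 genes 12 were called higher, with or without the element. The list names ATF4 targets, so its share of the element is not independent of how it was chosen.

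Serine and one-carbon metabolism, which feeds nucleotide synthesis, had 12 of 15 genes higher and 1 lower (median log2 1.11). Psat1, an enzyme of serine synthesis, stood at 9.97, 10.1 and 9.45 FPKM in the controls and at 83.9, 84.7 and 128 FPKM with CpG-C, and Mthfd2, the mitochondrial folate enzyme, at 10.4, 8.31 and 9.17 FPKM and then at 44.4, 44.1 and 86.7 FPKM. Of 19 amino acid transporters 12 rose and 5 fell, with 4 of the 19 passing the filter through CpG-C libraries alone. Slc7a3, a carrier of cationic amino acids, rose from 0.36 ± 0.23 to 8.39 ± 1.5 FPKM and Slc7a5, the large neutral amino acid carrier, from 10.8 ± 0.72 to 56.9 ± 21.8 FPKM, while Slc15a4, an endolysosomal histidine and peptide carrier, fell from 42.8 ± 1.94 to 22.3 ± 2.63 FPKM. Among 31 genes of mTORC1 and nutrient sensing 5 rose (16.1%) and 9 fell (29%), against 35.4% and 35% over all genes, and with TPM 3 rose and 19 fell. The sestrins in it, leucine sensors, moved in opposite directions: Sesn2 rose from 3.60 ± 0.39 to 12.6 ± 1.36 FPKM and Sesn1 fell from 64.4 ± 2.25 to 28.1 ± 8.30 FPKM.

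Among the genes of the ER, which folds secreted protein, 26 of 30 ER chaperones and unfolded protein response genes rose, 3 fell and Syvn1 was not called (median log2 0.84). Derl3, which passes misfolded protein out of the ER, stood at 4.53, 4.68 and 3.39 FPKM in the controls and at 46.2, 44.6 and 56.3 FPKM with CpG-C (log2 3.27 ± 0.14, adjusted p = 3.71e-09). Sdf2l1, an ER folding factor, rose from 14.6 ± 0.91 to 78.6 ± 23.2 FPKM, and Atf6, a membrane-bound sensor of unfolded protein, from 13.4 ± 0.98 to 59.1 ± 2.95 FPKM. Hspa5, the main ER chaperone, named here for its promoter after its values were seen, stood at 122, 132 and 130.2 FPKM and then at 321, 315 and 431 FPKM. Calr, a chaperone of glycoproteins named for the same reason, stood at 218, 195 and 228 FPKM and then at 368, 366 and 468 FPKM. Crebrf, a regulator that acts against the unfolded protein response, fell from 27.3 ± 0.65 to 9.23 ± 1.70 FPKM.

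Promoters of Hspa5, Calr and Derl3 are shown for the ER stress response element, CCAAT and CCACG with 9 bases between them, in capitals on either strand (Hspa5 chr2:34771840-34772089, plus strand; Calr chr8:84846932-84847181, minus strand; Derl3 chr10:75893148-75893397, plus strand).
Hspa5: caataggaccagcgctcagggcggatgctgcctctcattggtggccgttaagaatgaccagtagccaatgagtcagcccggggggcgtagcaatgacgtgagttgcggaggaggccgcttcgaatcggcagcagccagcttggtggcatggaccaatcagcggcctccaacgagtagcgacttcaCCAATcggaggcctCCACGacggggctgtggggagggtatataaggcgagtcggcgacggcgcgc
Calr: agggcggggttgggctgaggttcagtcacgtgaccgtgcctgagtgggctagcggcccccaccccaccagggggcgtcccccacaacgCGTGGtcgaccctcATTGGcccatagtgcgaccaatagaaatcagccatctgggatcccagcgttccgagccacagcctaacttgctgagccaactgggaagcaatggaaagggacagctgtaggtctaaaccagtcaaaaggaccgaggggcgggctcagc
Derl3: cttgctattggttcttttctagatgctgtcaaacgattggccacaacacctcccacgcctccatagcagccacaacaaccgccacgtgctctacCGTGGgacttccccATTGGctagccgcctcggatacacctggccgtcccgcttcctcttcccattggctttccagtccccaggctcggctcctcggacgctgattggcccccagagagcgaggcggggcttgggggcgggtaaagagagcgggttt
In Hspa5 the element starts 65 bases before the start of the gene, and in Calr and Derl3 it reads on the opposite strand, 162 and 156 bases before it. The element was in 9 of the 25 promoters available for this list (36%), those of Calr, Canx, Creld2, Derl3, Dnajc3, Hsp90b1, Hspa5, Pdia6 and Syvn1, of which 8 genes were called higher. It was in 0.196% of tested genes' promoters and 0.166% of all promoters. Its CCAAT part overlaps the CCAAT box, which 37.8% of tested genes' promoters hold. Of the 25 genes 21 were called higher, with or without the element. The list names unfolded protein response genes, so its share of the element is not independent of how it was chosen.

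Of 32 genes of ER translocation and COPII export, 25 rose and 3 fell, or 19 and 5 with TPM. Sec61g, a subunit of the translocation channel, rose from 22.1 ± 1.98 to 71.4 ± 7.49 FPKM, and Sec24d, a cargo adaptor of COPII vesicles, from 1.59 ± 0.15 to 8.81 ± 1.85 FPKM. N-glycosylation genes depended on the scaling, with 15 of 32 higher and 4 lower, or 12 and 10 with TPM. In both counts Rpn1 and Rpn2, subunits of the oligosaccharyltransferase, were among the higher, Rpn1 from 30.2 ± 0.51 to 65.1 ± 7.39 FPKM.

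Outside the immune lists, genes of protein synthesis had the largest gains in absolute level. That ranking took called genes without overlap between the groups and left immune-list genes out. Its 10 largest gains in mean FPKM, among them those of Eef1a1, Rplp1, Rpl28, Rpl41, Rpl32 and Eef2, were all of ribosomal proteins or elongation factors. Eef1a1, which delivers aminoacyl-tRNA to the ribosome, stood at 4778, 4710 and 5028 FPKM in the controls and at 9315, 8994 and 9394 FPKM with CpG-C (log2 0.93 ± 0.09). Of 83 cytosolic ribosomal protein genes 75 rose and 2 fell (median log2 0.92, or 0.67 with TPM), and they took 18.1% to 19.3% of the summed FPKM in the controls and 27.2% to 27.5% with CpG-C. The family has many processed pseudogenes, so single members are uncertain: Rpl10l, a testis copy, fell from 1.48 ± 0.34 to 0.07 ± 0.06 FPKM.

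The rest of the translation machinery had smaller medians. Of 52 initiation factors and their regulators 36 rose and 3 fell, or 26 and 8 with TPM, with Eif4ebp1, a repressor of cap-dependent translation that is also on the ATF4 list, rising from 16.8 ± 2.54 to 56.7 ± 7.33 FPKM, Eif2ak2, the double-stranded RNA sensor PKR, from 2.16 ± 0.21 to 17.9 ± 7.30 FPKM, and Eif4a2, a helicase, falling from 248 ± 20.1 to 122 ± 6.07 FPKM. All 17 calls among 20 cytosolic aminoacyl-tRNA synthetases were higher, as Aars was (29.99 ± 0.72 to 65.5 ± 15.1 FPKM), and of 17 mitochondrial synthetases 5 rose and 5 fell, but 3 and 7 with TPM and 8 and 4 under median of ratios scaling. With TPM 14 cytosolic synthetases rose and 0 fell. Of 77 mitochondrial ribosomal protein genes 61 rose and 2 fell (median log2 0.58), or 41 and 2 with TPM (median log2 0.34). Mrpl45 rose from 12.5 ± 0.84 to 37.2 ± 0.87 FPKM, and Mrpl39 fell from 96.7, 197 and 116 FPKM in the controls to 23.7, 24.7 and 29.9 FPKM with CpG-C. Among 37 proteasome subunits 34 rose and 0 fell, or 26 and 1 with TPM. Those that rose included Psmb9, an immunoproteasome subunit (44.1 ± 1.88 to 168 ± 38.3 FPKM), and Psmd14, a deubiquitinase of the lid (33.5 ± 2.31 to 124 ± 11.4 FPKM). Of 28 cytosolic chaperones 21 rose and 3 fell, or 17 and 4 with TPM. Hspe1, the mitochondrial co-chaperonin listed with them, rose from 60.6 ± 3.31 to 198 ± 54.1 FPKM.

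Genes of DNA synthesis and cell division formed the other group of large differences. Rrm2, the ribonucleotide reductase subunit that limits deoxynucleotide supply, stood at 5.69, 4.44 and 6.02 FPKM in the controls and at 88.1, 86.0 and 155 FPKM with CpG-C (log2 4.07 ± 0.26, adjusted p = 7.86e-08), and 23 of 28 genes of purine and pyrimidine synthesis rose while 3 fell. Samhd1, which degrades deoxynucleotides, fell from 164 ± 3.27 to 82.0 ± 3.08 FPKM. Of 22 genes of the mini-chromosome maintenance (MCM) and origin complexes, which license and unwind DNA, 17 rose, 0 fell and 5 were not called (median log2 1.5), with Mcm10 at 1.76, 1.82 and 1.75 FPKM and then 13.5, 13.5 and 26.9 FPKM. With TPM scaling 2 of them were lower and 16 higher. Of 47 DNA repair genes, 2 of which passed the filter through CpG-C libraries alone, 28 rose and 5 fell, or 23 and 10 with TPM.

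Centromere proteins and condensins, which act in mitosis, had 24 of 27 genes higher and 0 lower (median log2 1.77, the second highest of the lists with at least 10 tested genes). Of the 27, 1 passed the filter through CpG-C libraries alone. Ncapg, a condensin subunit, stood at 2.1, 2.37 and 1.51 FPKM and then at 23.5, 20.3 and 33.3 FPKM. Of 30 kinesins, 4 of which passed the filter through CpG-C libraries alone, 19 rose and 5 fell: the mitotic motors Kif22, Kif23 and Kif18b rose, Kif23 from 2.77 ± 0.14 to 34.9 ± 2.19 FPKM, and Kifc2, a motor known from neurons, fell from 4.21 ± 0.07 to 1.26 ± 0.51 FPKM. Among ubiquitin-conjugating enzymes 17 of 31 rose and 4 fell, or 11 and 8 with TPM, and among those that rose was Ube2c, the mitotic enzyme of the anaphase-promoting complex, from 8.46, 9.68 and 9.71 FPKM to 115, 119 and 175 FPKM. Tubb6 and Tubb5, beta-tubulins, rose from 4.46 ± 0.90 to 32.5 ± 1.76 and from 182 ± 27.6 to 561 ± 86.3 FPKM, and of 18 tubulins 9 rose and 4 fell, or 7 and 5 with TPM.

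Nuclear transport and RNA processing followed with smaller differences. Of 38 nuclear pore and transport receptor genes 27 rose and 1 fell (median log2 0.63), or 21 and 2 with TPM. Kpna2, an importin, rose from 16.5 ± 1.30 to 78.7 ± 19.7 FPKM and Nup153 fell from 33.3 ± 1.96 to 26.2 ± 1.31 FPKM. Of 36 SR proteins and hnRNPs 22 rose and 3 fell, or 11 and 8 with TPM, and the median log2 was 0.31. Hnrnpa1, a splicing repressor, rose from 309 ± 19.2 to 672 ± 122 FPKM, and Srsf5, a splicing activator, fell from 454 ± 29.7 to 261 ± 59.5 FPKM.

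**Figure D3:**
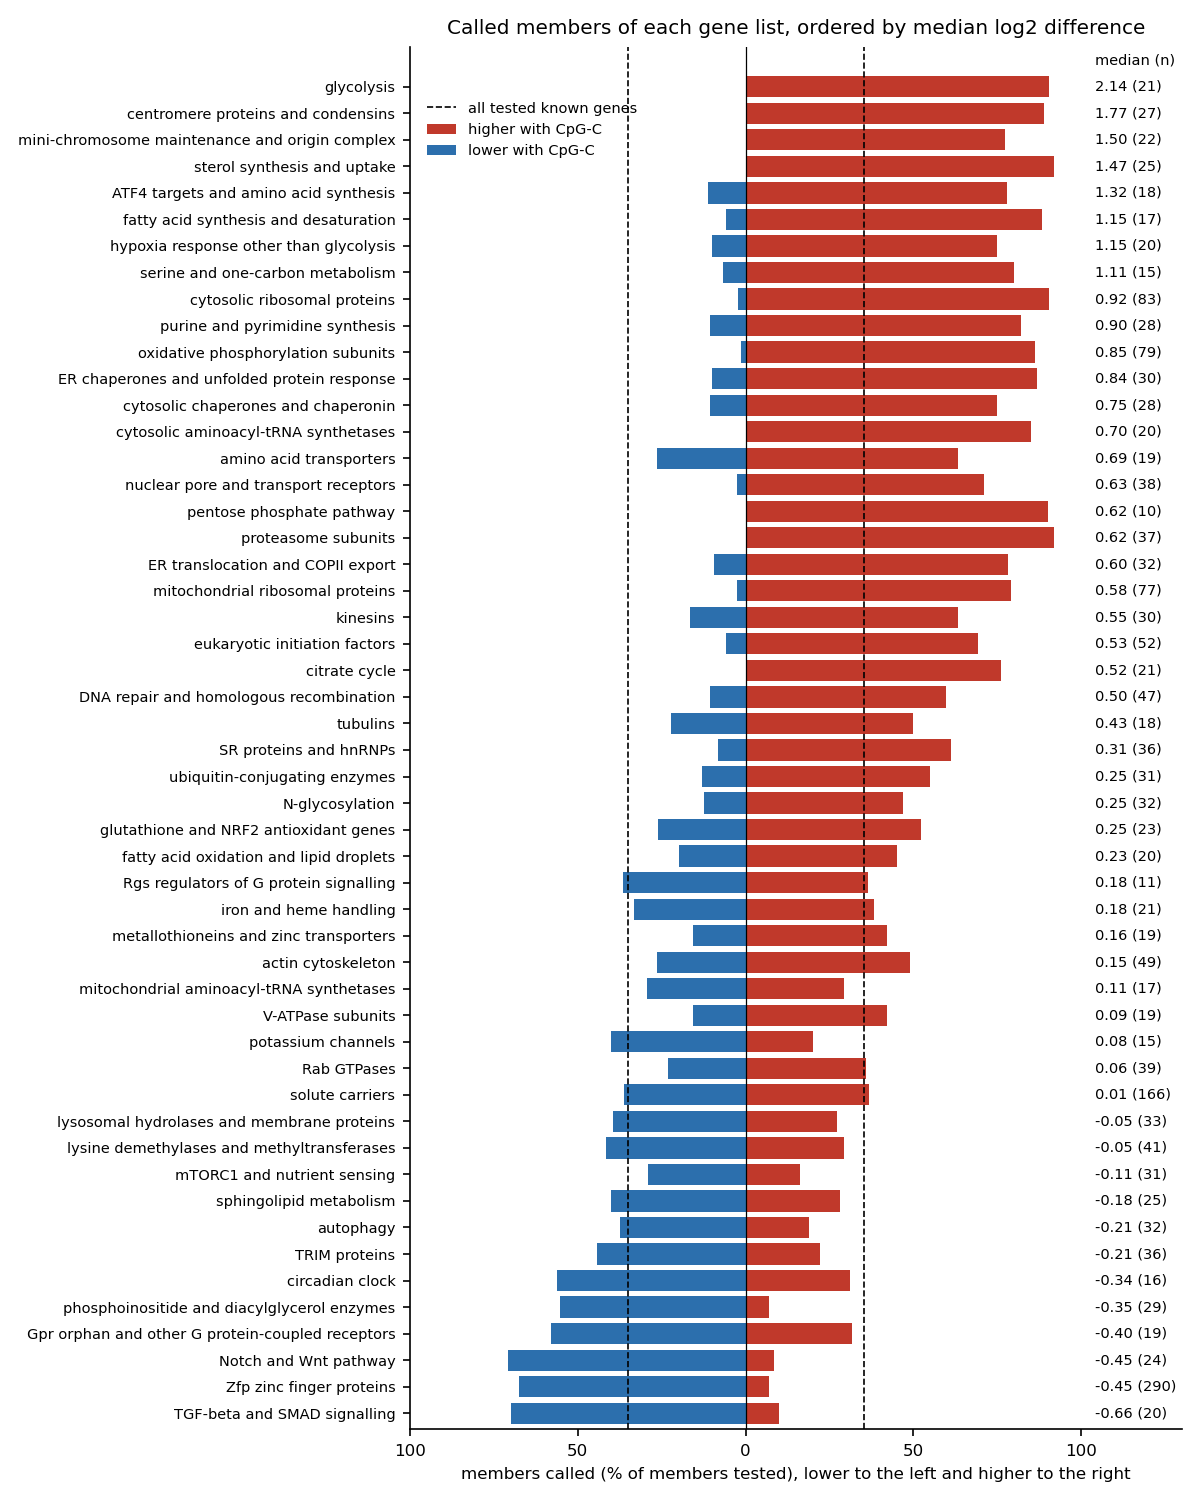
Bars give the percentage of tested members called higher (red, right) or lower (blue, left) with CpG-C for each list with at least 10 tested genes, ordered by the median log2 difference printed at the right with the number tested. Dashed lines mark all tested known genes, 35.4% higher and 35% lower, and the lists run from glycolysis (2.14) at the top to TGF-beta and SMAD signalling (-0.66) at the bottom.

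Several of the genes that fell were expressed at high level in the controls. Fcmr, the receptor for IgM, stood at 1152, 1029 and 1133 FPKM in the controls and at 132, 133 and 84.7 FPKM with CpG-C (log2 -3.26 ± 0.16, adjusted p = 9.42e-09). Hvcn1, a proton channel of B cells, fell from 446 ± 42.9 to 126 ± 2.16 FPKM. Ddx5, an RNA helicase, fell from 871 ± 18.6 to 421 ± 54.4 FPKM, and Shisa5, an ER protein of the p53 response, from 815 ± 103 to 441 ± 27.5 FPKM. The ferritin genes Fth1 and Ftl1 fell less, Fth1 from 1138 ± 132 to 803 ± 98.5 FPKM (log2 -0.50 ± 0.12) and Ftl1 from 1270 ± 19.4 to 968 ± 186 FPKM (log2 -0.41 ± 0.15, adjusted p = 0.0227), and the call of Ftl1 was lost without CpG-C library 3 and without each control in turn. The class II pseudogene H2-Ea-ps, whose fragments can be shared with related genes, fell from 3303 ± 98.8 to 1705 ± 260 FPKM.

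By log2 the largest decrease outside the immune lists was that of Crisp3, a cysteine-rich secreted protein, which stood at 55.8, 51.9 and 54.0 FPKM in the controls and at 0.94, 1.13 and 0.87 FPKM with CpG-C (log2 -4.79 ± 0.16, adjusted p = 5.68e-10). Tgfb3, a TGF-beta ligand, stood at 28.8, 27.3 and 28.2 FPKM and then at 0.65, 0.57 and 0.53 FPKM. For these 2 genes the controls agreed closely with each other. Others differed among the controls, as the unnamed loci did: Clec4a2, a C-type lectin of myeloid cells, stood at 366, 348 and 240 FPKM and then at 12.3, 11.4 and 14.2 FPKM, Adam5, a testis protease, at 196, 215 and 120.0 FPKM and then at 5.34, 5.08 and 5.47 FPKM, and Zfp488 at 99.2, 128 and 73.2 FPKM and then at 5.57, 5.05 and 4.63 FPKM. In these 3 genes, as in EU599041, Clca3b, Vmn1r58, Lemd1 and Dux, control 3 was the lowest control, as it was for unnamed loci. Vmn1r58, a vomeronasal receptor gene, stood at 33.4, 37.3 and 21.7 FPKM in the controls, against a mean of 0.153 to 0.251 FPKM over the receptor genes. In Spag6, Gm595, 2410141K09Rik, Tpte and Slc5a11, the others of the 15, control 3 was not the lowest: Spag6 stood at 54.4, 88.7 and 55.3 FPKM in the controls and Gm595 at 206, 88.6 and 90.3 FPKM. The part of the low signal of the controls in these decreases was not tested.

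The Zfp zinc finger genes, a large family of DNA-binding proteins many of which silence transposons, were lower as a family. The table held 361 of them, and of the 290 tested 196 fell, 20 rose and 74 were not called (median log2 -0.45), against 35% lower over all genes, and with TPM scaling 228 fell and 13 rose. Among them 12 passed the filter with no CpG-C library above 1 FPKM, and under a filter of 5 FPKM 122 fell and 14 rose. The family took 0.867% to 0.898% of the summed FPKM in the controls and 0.463% to 0.509% with CpG-C. Zfp369 fell from 55.7 ± 13.2 to 6.48 ± 0.87 FPKM and Zfp112 from 4.74 ± 1.93 to 0.28 ± 0.11 FPKM, while Zfp53 rose from 25.6, 28.9 and 25.4 FPKM to 124, 122 and 105 FPKM. At a mean of 10 to 30 FPKM 73.3% of 60 Zfp genes were lower and 3.33% higher, and of the 3533 other known genes at that level 33.1% were lower and 33.7% higher. At 30 to 100 FPKM the family had 11 genes, of which 6 were higher and 5 lower (median log2 0.27), and both genes at 100 to 300 FPKM were lower. Zfp369, Zfp112 and Zfp488 were lowest in control 3 among the controls.

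**Figure D4:**
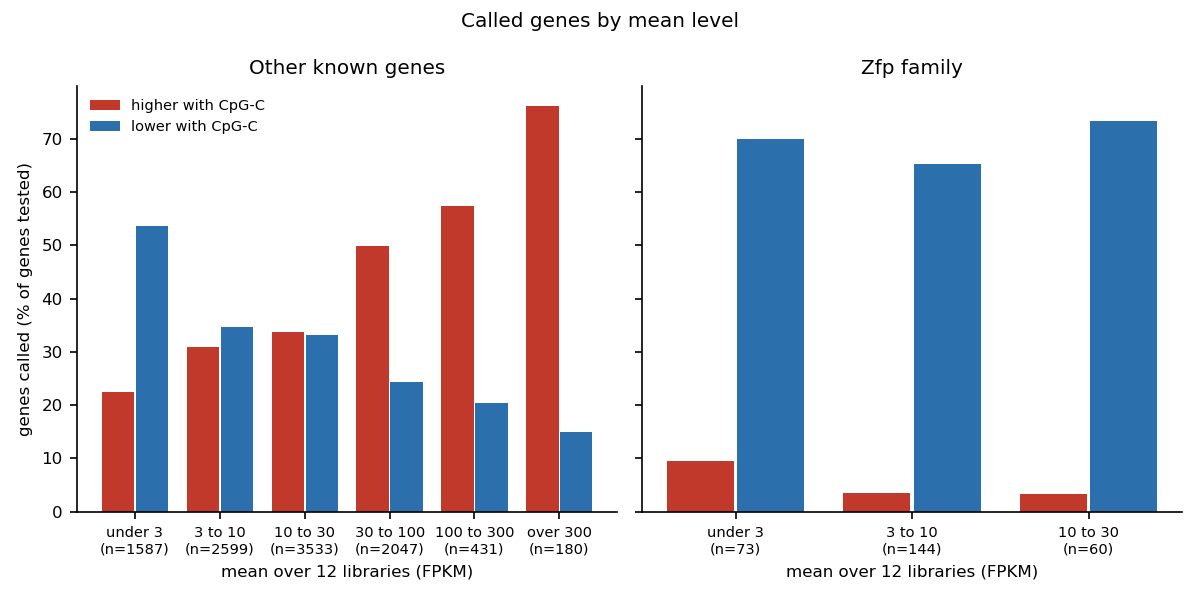
Bars give the percentage of tested genes called higher (red) or lower (blue) with CpG-C by mean level over 12 libraries in FPKM, for other known genes (left) and for the Zfp family (right), with bins of fewer than 20 genes left out. Among other genes the higher share climbs with level to 76.1%, and in the Zfp family the lower share is between 65.3% and 73.3% in the 3 bins shown.

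Several signalling lists were also mostly lower. Of 20 genes of TGF-beta and SMAD signalling, 2 of which passed the filter through the controls alone, 14 fell and 2 rose (median log2 -0.66). Smad7, an inhibitor of the pathway, stood at 19.8, 16.3 and 18.5 FPKM in the controls and at 3.74, 3.85 and 2.92 FPKM with CpG-C. Ski, a corepressor of SMADs, fell from 27.1 ± 2.89 to 6.61 ± 1.38 FPKM. Id3, an inhibitor of E proteins, fell from 117 ± 10.2 to 48.0 ± 5.63 FPKM, while Id2, its relative, rose from 2.63 ± 0.54 to 10.2 ± 4.13 FPKM. Of 24 Notch and Wnt genes 17 fell and 2 rose, with Notch1 among the 2, from 3.38 ± 0.39 to 31.1 ± 3.68 FPKM, whereas Notch2, the receptor of marginal zone B cells, fell from 48.9 ± 5.67 to 21.9 ± 4.16 FPKM and Lfng, a glycosyltransferase that modifies Notch, from 24.4 ± 1.46 to 6.54 ± 0.21 FPKM. Among 29 phosphoinositide and diacylglycerol enzymes 16 fell and 2 rose, and among those that fell was Dgka, a diacylglycerol kinase, which stood at 152, 143 and 145 FPKM and then at 41.1, 40.6 and 23.0 FPKM. Prkca, a diacylglycerol-activated kinase, rose from 5.39 ± 0.24 to 13.3 ± 0.39 FPKM.

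Among 16 circadian clock genes 9 fell and 5 rose, or 5 and 5 with a filter at 5 FPKM. Nr1d2, a clock repressor, stood at 12.7, 13.4 and 13.9 FPKM in the controls and at 1.9, 1.59 and 1.58 FPKM with CpG-C (log2 -2.42 ± 0.09), and Nfil3, which opposes the D-box activators, at 0.64, 0.55 and 0.67 FPKM and then at 7.62, 8.8 and 20.9 FPKM. In autophagy 12 of 32 genes fell and 6 rose, or 22 and 3 with TPM, and Optn, an autophagy receptor, rose from 3.86 ± 0.18 to 14.8 ± 2.52 FPKM. The 33 lysosomal genes had 13 lower and 9 higher, or 16 and 5 with TPM, and the 41 lysine demethylases and methyltransferases 17 lower and 12 higher, or 21 and 7 with TPM. The shares of falls in autophagy, lysosomal and methylation genes (37.5%, 39.4% and 41.5%) were near the 35% over all genes. Their shares of rises were 18.8%, 27.3% and 29.3%, against 35.4%. Ezh2, the Polycomb methyltransferase, rose from 16.3 ± 0.78 to 77.5 ± 15.2 FPKM and Kdm7a, a demethylase, fell from 19.3 ± 1.27 to 6.02 ± 1.85 FPKM. Of 19 orphan and other G protein-coupled receptors 11 fell and 6 rose, with Gpr183, an oxysterol receptor that guides B cells, falling from 34.4 ± 2.99 to 15.2 ± 4.98 FPKM. TRIM proteins had 16 of 36 lower and 8 higher, with 5 of the 36 passing the filter through the controls alone.

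In several lists the split between higher and lower turned with the scaling. Actin cytoskeleton genes had 24 of 49 higher and 13 lower, but 9 higher and 22 lower with TPM, Rab GTPases 14 and 9 of 39 but 5 and 18, V-ATPase subunits 8 and 3 of 19 but 2 and 7, glutathione and NRF2 genes 12 and 6 of 23 but 7 and 8, iron and heme genes 8 and 7 of 21 but 7 and 10, and solute carriers 61 and 60 of 166 but 44 and 74. Single members among them moved far: Tfrc, the transferrin receptor, rose from 17.3 ± 1.43 to 42.0 ± 2.51 FPKM and Mt1, a metallothionein, from 1.18 ± 0.47 to 12.01 ± 1.65 FPKM, while Slc25a37, the iron importer of mitochondria, fell from 51.3 ± 5.37 to 19.5 ± 3.01 FPKM and Nqo1, a quinone reductase, stood at 9.38, 9.36 and 9.76 FPKM and then at 4.63, 5.1 and 0.27 FPKM. Among 8 Gimap GTPases 3 rose and 3 fell, or 2 and 5 with TPM, and Gimap7 rose from 15.7 ± 2.47 to 40.5 ± 2.87 FPKM. The remaining lists were small. Both P2 purinergic receptors tested fell, P2rx4 from 15.2 ± 0.81 to 6.66 ± 1.5 FPKM. Of 7 septins 6 rose and 0 fell, or 3 and 0 with TPM. Of 19 metallothionein and zinc transporter genes 8 rose (42.1%, near the 35.4% over all genes) and 3 fell (15.8%), or 7 and 4 with TPM. Of the 19, 2 passed the filter through CpG-C libraries alone. Rgs genes had 4 of 11 lower (36.4%) and 4 higher, and potassium channels 6 of 15 lower (40%) and 3 higher, shares of falls near the 35% over all genes. Of those 15 channels 4 had passed the filter with no CpG-C library above 1 FPKM, and with a filter at 5 FPKM 1 rose and 1 fell.

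CpG-C library 3 differed from libraries 1 and 2 by gene group rather than evenly. It was lower in genes of hypoxia response (median log2 gap -0.81), sterol synthesis (-0.59) and glycolysis (-0.42), and higher in MCM and origin genes (0.68), nucleotide synthesis (0.67), one-carbon metabolism (0.63), and the mitochondrial ribosome and the proteasome (0.46 each). Ribosomal proteins of the cytosol hardly differed (0.03). The third CpG-B library stood apart from the first and second CpG-B libraries in the same measure, by 41.1 and 37.3 times the sampling noise. Without library 3, 20 of 21 glycolysis genes, 17 of 22 MCM and origin genes and 31 of 37 proteasome genes were called higher. Mitochondrial ribosomal genes called higher went from 61 to 55 without it (median log2 0.58 to 0.41), and cytosolic aminoacyl-tRNA synthetases from 17 to 14. The median log2 of cytosolic chaperones went from 0.75 to 0.53, and that of nuclear pore and transport receptor genes from 0.63 to 0.48. Which property of library 3 the gap follows was not tested, since the labels give no batch.

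**Figure D5:**
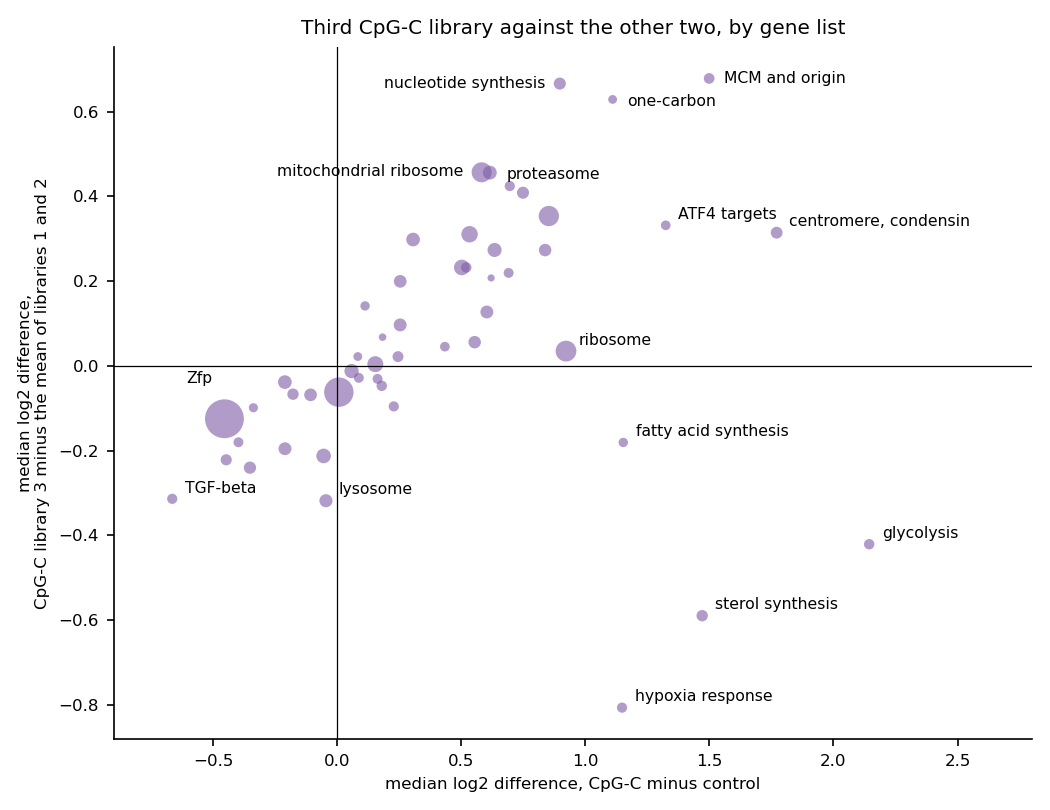
Each circle is a gene list with at least 10 tested genes, sized by the number tested, with its median log2 difference between CpG-C and control on the horizontal axis and the median log2 gap between CpG-C library 3 and the mean of libraries 1 and 2 on the vertical axis. Hypoxia response (-0.81), sterol synthesis and glycolysis lie below 0, and MCM and origin genes (0.68) lie above it.

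The other ODN classes were compared at the same dose and time. CpG-C differed from CpG-B in 30 known genes (0.281%), 20 higher and 10 lower with CpG-C, and 827 had an unadjusted p under 0.05. These comparisons share the CpG-C libraries with the comparison against the control. The gene with the lowest adjusted p was Egr3, an immediate-early transcription factor, at 62.5 ± 3.10 FPKM in the controls, 16.8 ± 0.91 FPKM with CpG-B and 37.2 ± 4.05 FPKM with CpG-C (adjusted p = 0.00031), followed by its relative Egr1 at 54.6 ± 6.42, 27.9 ± 0.66 and 51.4 ± 0.97 FPKM. Lck, a Src family kinase, was at 79.3 ± 4.87, 22.9 ± 3.12 and 42.3 ± 3.80 FPKM, and Ddit3, a transcription factor of the ER stress and ATF4 response, at 26.9 ± 0.76, 50.2 ± 8.85 and 26.1 ± 2.2 FPKM. These 4, named by adjusted p after their values were seen, each had CpG-C nearer to the control than CpG-B was. Same-numbered CpG-B and CpG-C libraries deviated together, and in a fit of these 6 libraries with the replicate number as a block 0 genes were called by limma, with 2038 at an unadjusted p under 0.05. Without CpG-C library 1 the count of 30 became 1, and without CpG-C library 2 it became 15. The median half-width of the 95% interval of a log2 difference from the control was 0.25.

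Against CpG-A, 4253 known genes differed (39.9%), 1633 higher and 2620 lower with CpG-C. Of the metabolic lists, 21 of 25 sterol genes and 18 of 21 glycolysis genes were higher with CpG-C than with CpG-A, and 0 lower. Slc16a3 was at 0.12 FPKM on average with CpG-A, near the control mean of 0.16, and at 44.6 FPKM with CpG-C. Ankrd37 was at 5.05 FPKM with CpG-A and Vegfa at 0.54 FPKM, against 58.5 and 12.1 FPKM with CpG-C. In contrast, of the 22 MCM and origin genes 0 were higher and 1 lower than with CpG-A, and Mcm10 stood at 14.7 FPKM with CpG-A and 17.96 FPKM with CpG-C, a log2 difference of 0.20 (adjusted p = 0.561). Of the 83 ribosomal protein genes 57 were higher and 1 lower than with CpG-A, of 27 centromere and condensin genes 18 and 1, and of 290 Zfp genes 8 and 132. Unnamed loci had medians of 0.24 to 0.42 FPKM with CpG-A, between those of the controls and of CpG-C.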

How the data were processed

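RNA-seq of splenic B cells gave 1 deposited table with an FPKM per gene and library, sequenced on a DNBSEQ instrument per the labels. The FPKM values were made by the authors. Per the submitters' processing notes the build was mm10 and the tools included RSEM 1.2.8, Bowtie2 2.2.5, StringTie, HISAT and GATK, whose roles are not stated. Log2 ratios, p-values and q-values of the authors' own comparisons are deposited beside the FPKM and are used only where named.

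Differences were computed as log2(FPKM + 1) with limma 3.58.1 in R 4.3.3 (trend, 12 libraries, 4 group means), on 15562 rows that exceeded 1 FPKM in at least 3 of the 6 CpG-C and control libraries, 10667 of them known genes, with Benjamini-Hochberg adjustment over all rows. The adjusted p-values in the text are limma's, and a gene is called at an adjusted p under 0.05. A fold change on this scale understates the change of low genes. Unnamed loci stayed in the fit and out of the counts. The procedure was tested on simulated data. Figures and summaries used Python 3.11.15.

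The genes and the lists were chosen with earlier results of these data known, and after the table was seen the pattern of 1 list was corrected and 1 list with no gene in the table was dropped. Genes were named by a rule: among called genes off the immune lists, without overlap and averaging 10 FPKM or more in their higher group, the 15 highest and 15 lowest log2 differences and the 10 largest gains and losses in FPKM, and in each list the 3 largest calls in its main direction and the largest in the other. Genes listed at 0 are given by library. Promoters matched 8657 of the tested genes by gene ID on the same chromosome.

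Same-numbered CpG-B and CpG-C libraries deviated together (correlations over genes 0.72, 0.64 and 0.80), though libraries 1 and 2 did so with either number, and same-numbered CpG-C and control libraries did not (0.01, -0.10 and -0.06). Alternatives were TPM, upper quartile and median of ratios scaling, other filters and pseudocount, fewer samples or rows, the replicate block and each library left out in turn. Some results that the naming rule selects are not reported here.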

Additional observations from a re-analysis of the deposited data

How the results depend on the processing

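The counts of known genes higher and lower with CpG-C, 3778 and 3732, and those past 2-fold, 1156 and 1055, stayed within 1.5 times their value under the alternatives, except that 8106 genes were lower with no filter on low values and that 546 genes were at least 2-fold lower with a filter at 5 FPKM, where fewer genes were tested. Leaving out 1 library at a time gave 3526 to 3681 higher genes, 3414 to 3678 lower genes, 1062 to 1211 and 942 to 1144 past 2-fold, and 3086 to 4672 that differed from CpG-A. The 30 genes that differed between CpG-C and CpG-B became 18 with no filter and 1 to 28 when 1 library was left out, and 0 in the fit of the 6 CpG-B and CpG-C libraries with the replicate number as a block, an alternative chosen after seeing the data. The cause was not tested. With the replicate block over all 12 libraries the counts were 3867 higher, 3806 lower, 1156 and 1055 past 2-fold, 28 against CpG-B and 4572 against CpG-A. Of 243 genes named by rule, 236 had the same call and direction in each of the 16 alternatives that tested them, 7 lost the call in at least 1 and 0 reversed. Depth, lower in the controls, limits genes near 1 FPKM most.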
